A study of Mus musculus with 18 samples.

Results

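Alveolar and bronchiolar subcultures of bronchioalveolar stem cells (BASCs) were compared after activation of mutant EGFR. Members were chosen by their sample titles and origin labels. They are 3 of the 18 sequenced mouse samples, namely the alveolar Ad-Cre culture, the bronchiolar Ad-Cre culture and the mixed Ad-Cre culture, with 1 culture each. The donor mice carried human EGFR with T790M and L858R, knocked into Col1a1 behind a lox-stop-lox cassette and driven by the ubiquitous CAG promoter. Sca1+ EpCAM+ CD31- CD45- cells of the distal lung received adenoviral Cre (Ad-Cre), which removes the stop cassette, and grew as organoids in Matrigel with neonatal lung mesenchymal support cells. Organoids were picked by hand by their shape under the microscope during passage, and the mixed culture held both shapes. The mixed BASC culture that received a GFP virus (Ad-GFP) in place of Cre has the same allele with the stop cassette in place and served as a second reference. Donor age and the number of mice pooled are not given in the sources used here.

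BASCs are rare cells at the junction of the terminal bronchiole and the alveolus, known for carrying markers of both compartments and for giving rise to both. Alveolar type 2 (AT2) cells make surfactant, the lipid and protein film that keeps alveoli open, and renew the flat alveolar type 1 (AT1) cells of gas exchange. The bronchiolar epithelium holds secretory club cells and multiciliated cells, and in the larger airways also basal cells, which are anchored by keratins and integrins and can turn squamous after injury.

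Total expected counts of the 3 Ad-Cre cultures lay between 45022234 and 63217023 reads, so that 1 read equalled 0.0160 to 0.0235 counts per 1000000 (CPM) after scaling by trimmed mean of M values (TMM). Levels below are TMM-scaled CPM, and differences are log2 CPM differences, alveolar minus bronchiolar, with a prior count of 2. With 1 culture a group there is no replicate check and no test. Intervals in parentheses are exact 95% binomial intervals of the log2 ratio and cover counting error only. The alveolar and bronchiolar libraries share a lane number in the deposited names, and the mixed Ad-Cre and mixed Ad-GFP libraries share another. Mitochondrial genes took 5.38% of the counts in the alveolar culture, 2.94% in the bronchiolar and 3.07% in the mixed culture, and the part of this in the results below was not tested.

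The labels were first checked against 3 defining genes. Sftpc, the gene of surfactant protein C and the defining AT2 gene (GRCm38 chromosome 14, 70520949 to 70524081), stood at 28890 CPM in the alveolar culture, 669 CPM in the mixed and 145 CPM in the bronchiolar culture, a log2 difference of 7.64 (7.61 to 7.67). Scgb1a1, the club cell secretory protein (chromosome 19, 9083636 to 9087958), stood in the reverse order at 201, 562 and 1488 CPM, a log2 difference of -2.89 (-2.92 to -2.85). Foxj1, the master factor of multiciliated cells (chromosome 11, 116330704 to 116335399), had 20.8 CPM in the alveolar, 138 CPM in the mixed and 106 CPM in the bronchiolar culture, a log2 difference of -2.35 (-2.45 to -2.25). The direction of all 3 genes matched the labels. None of them was absent from the opposite culture: Scgb1a1 in the alveolar culture was far above the 12.8 CPM of the AT2 Ad-GFP culture and below the 300.5 CPM of the AT2 Ad-Cre culture.

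**Figure D1:**
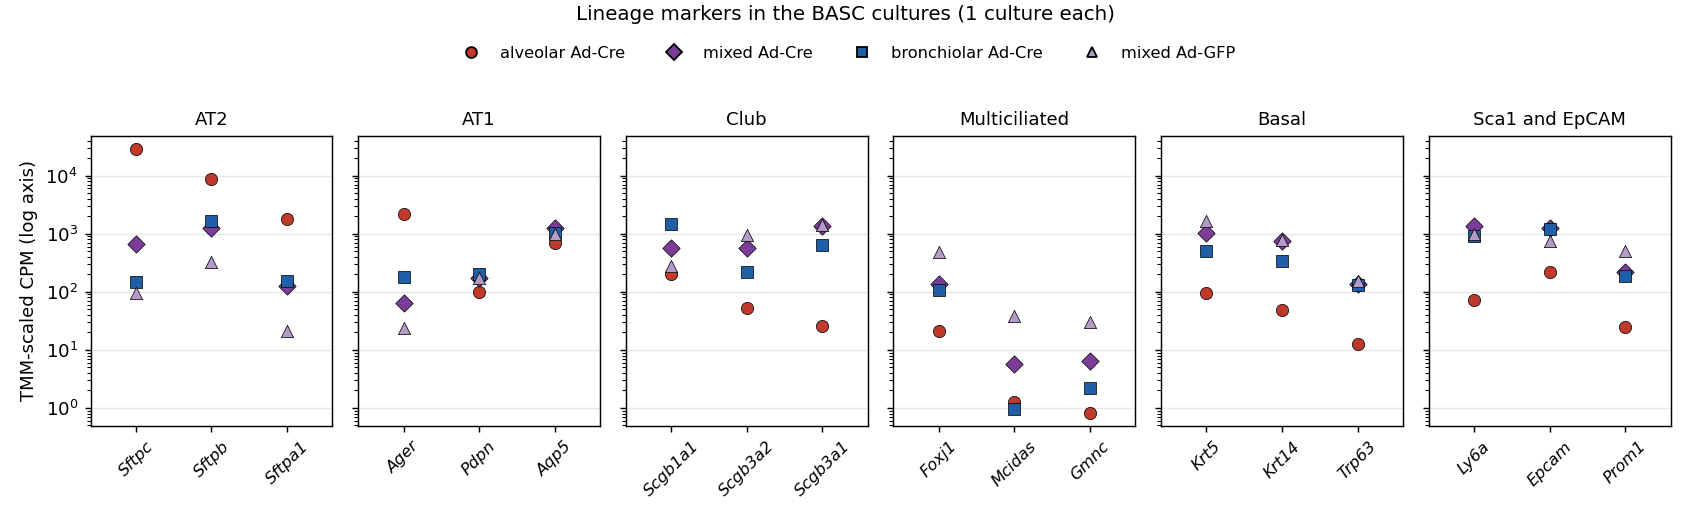
TMM-scaled CPM on a log axis of 18 marker genes in the alveolar, mixed and bronchiolar Ad-Cre cultures and the mixed Ad-GFP culture, 1 culture each, with no error bars because there are no replicates. The alveolar culture stands alone at the top for Sftpc, Sftpb, Sftpa1 and Ager, and at the bottom for Scgb1a1, Krt5, Krt14, Trp63, Ly6a, Epcam and Prom1.

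Of 10951 genes at 10 CPM or more in at least 1 of the 3 Ad-Cre cultures, 1179 (10.8%) were at least 2-fold higher in the alveolar culture and 1198 (10.9%) at least 2-fold higher in the bronchiolar culture. At 4-fold the counts were 456 (4.16%) and 486 (4.44%). The median difference over all genes was -0.10, and 12 housekeeping genes had a median of 0.03 with none past 2-fold. In deposited TPM, a length-scaled share of each library, the median over the same genes was -0.29 and the alveolar share of the 2-fold calls was 36.6%, against 49.6% in TMM-scaled CPM, so small differences depend on the scale. Other pairs of cultures give the scale. The same 2-fold rule marked 21.5% of genes at 10 CPM in either culture between the alveolar and bronchiolar subcultures, and 23.6% between the bronchiolar subculture and the AT2 Ad-Cre culture. It marked 1.46% between the alveolar subculture and the AT2 Ad-Cre culture, and 2.98% between the bronchiolar and mixed cultures. Tracheal club and basal Ad-Cre cultures differed in 0.599% of genes, and the bronchiolar subculture differed from them in 12.3% and 11.4%.

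The promoters of 6 genes from both sides are shown first, because they carry the motif letters that the gene groups below shared or did not share. Each is the 250 bases before the annotated start, from RefSeq on GRCm38.p6, 5′ to 3′ on the gene's own strand, with capitals marking matches on either strand to any of 5 searched motifs: GTTGCC (RFX), TGTTTAC (forkhead), CTCAAG (NKX2-1), TTGCNNAA (C/EBP) and TGANTCA (AP-1). The table holds no promoter of Sftpc, Scgb1a1 or Foxj1.
Sftpb (surfactant protein B, chr6:72304360-72304609, plus strand, 1 CTCAAG match alone, and overlapping TGACTCA and CTCAAG matches near the start): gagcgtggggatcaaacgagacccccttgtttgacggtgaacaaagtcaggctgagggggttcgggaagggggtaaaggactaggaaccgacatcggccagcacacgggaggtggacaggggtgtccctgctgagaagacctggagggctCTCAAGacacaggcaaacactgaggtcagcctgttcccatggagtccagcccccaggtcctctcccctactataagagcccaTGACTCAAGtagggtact
Lamp3 (lamellar body membrane protein, chr16:19706366-19706615, minus strand, forkhead match): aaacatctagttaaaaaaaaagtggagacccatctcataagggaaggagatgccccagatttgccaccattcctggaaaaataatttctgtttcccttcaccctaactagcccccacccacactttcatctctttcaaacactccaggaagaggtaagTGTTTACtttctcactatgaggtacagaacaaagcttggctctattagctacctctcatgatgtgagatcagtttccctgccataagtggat
Sprr1a (squamous cornified envelope, chr3:92485882-92486131, minus strand, 2 AP-1 matches): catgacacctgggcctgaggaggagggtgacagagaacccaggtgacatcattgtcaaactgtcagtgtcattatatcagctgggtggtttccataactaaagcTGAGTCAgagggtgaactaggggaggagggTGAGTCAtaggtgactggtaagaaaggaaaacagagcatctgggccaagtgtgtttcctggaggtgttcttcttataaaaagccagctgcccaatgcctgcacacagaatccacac
Serpinb2 (serine protease inhibitor, chr1:107511173-107511422, plus strand, C/EBP then AP-1 match): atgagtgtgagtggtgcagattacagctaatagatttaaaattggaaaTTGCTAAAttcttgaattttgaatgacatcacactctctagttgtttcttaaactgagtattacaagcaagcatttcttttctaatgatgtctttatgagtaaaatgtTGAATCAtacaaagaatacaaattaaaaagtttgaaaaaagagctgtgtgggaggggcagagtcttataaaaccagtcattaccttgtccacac
Bpifa1 (secreted airway antimicrobial, chr2:154142630-154142879, plus strand, NKX2-1 then AP-1 match): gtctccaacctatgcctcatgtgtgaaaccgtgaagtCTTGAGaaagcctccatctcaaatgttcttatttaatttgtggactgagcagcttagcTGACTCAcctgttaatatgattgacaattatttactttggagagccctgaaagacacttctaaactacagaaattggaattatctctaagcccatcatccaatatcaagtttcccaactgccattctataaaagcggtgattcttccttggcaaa
Tekt1 (ciliary microtubule protein, chr11:72361883-72362132, minus strand, 2 RFX matches): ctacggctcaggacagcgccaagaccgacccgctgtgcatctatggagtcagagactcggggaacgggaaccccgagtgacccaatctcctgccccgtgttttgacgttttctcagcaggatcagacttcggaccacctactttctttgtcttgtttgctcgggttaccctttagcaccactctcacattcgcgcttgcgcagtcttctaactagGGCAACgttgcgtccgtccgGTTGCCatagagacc

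Surfactant and lamellar body genes formed the most one-sided group. All 21 of the 22 listed AT2 genes that reached 10 CPM were at least 2-fold higher in the alveolar culture, with a median difference of 3.60 and a lowest of 1.06. Of these, 6 reached 10 CPM in the alveolar but not in the bronchiolar culture, while 15 reached it in both. Sftpb had 8646 CPM in the alveolar, 1245 CPM in the mixed and 1659 CPM in the bronchiolar culture. Sftpa1, a surfactant collectin, had 1824, 125 and 151 CPM. Lamp3, whose protein lines the lamellar body, had 1705, 85.3 and 110 CPM. Hc, complement C5, had 134, 6.99 and 1.36 CPM, a log2 difference of 6.58 (6.32 to 6.95). The genes were unequal at the bronchiolar end, where the ratio of the bronchiolar to the alveolar level was 0.192 for Sftpb and 0.00502 for Sftpc.

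AT1 genes were divided. Of 19 listed genes, all at 10 CPM, 12 were at least 2-fold higher in the alveolar and 2 in the bronchiolar culture. The median difference was 1.47. Over all 10951 genes these shares were 10.8% and 10.9%. Of the 19, 15 reached 10 CPM in both subcultures. Another 4, Rtkn2 among them, reached it in the alveolar but not the bronchiolar culture and so had to lie on that side. Ager, a receptor abundant on AT1 cells, had 2171 CPM in the alveolar, 65.2 CPM in the mixed and 180 CPM in the bronchiolar culture. Rtkn2, a marker of AT1 cells, had 75.3, 1.86 and 1.08 CPM. Pdpn, the podoplanin gene, lay the other way at 99.4, 173 and 204 CPM. Krt7, a simple keratin also present in airway cells, had 418, 2204 and 2477 CPM. Aqp5, a water channel of AT1 and airway gland cells, had 701, 1278 and 1011 CPM and did not pass 2-fold. A further list held 15 genes of the keratin-rich transitional state that is known between AT2 and AT1 cells. None of the 15 was 2-fold higher in the alveolar culture and 8 were 2-fold higher in the bronchiolar culture. Cldn4 was farthest at 65.8 against 1295 CPM, and had 648 CPM in the club and 818 CPM in the basal Ad-Cre culture. Whether either subculture held the transitional state was not tested.

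Genes of lipid and sterol synthesis, which feeds the lipid part of surfactant, lay on the alveolar side. All 24 listed had higher TMM-scaled CPM in the alveolar culture, 17 of them at least 2-fold, with a median difference of 1.21 beside -0.10 over all genes. In TPM the list median was 0.96. Scd1, which desaturates fatty acids, had 16817 CPM in the alveolar, 1096 CPM in the mixed and 2023 CPM in the bronchiolar culture. Acoxl, related to acyl-CoA oxidases, had 121, 2.72 and 0.558 CPM. Fasn, the fatty acid synthase, was among the larger differences at 2.58, while Srebf1 and Srebf2, the factors that drive these enzymes, were within 2-fold at 0.29 and 0.17. Genes of MHC class II, the antigen presentation system that AT2 cells are known to carry, showed the same side. All 6 at 10 CPM of the 8 listed were at least 2-fold higher, among them H2-Aa at 149, 32.7 and 29.7 CPM. Ptprc, the pan-leukocyte gene, was at 0.680, 0.0160 and 0.0319 CPM in the alveolar, mixed and bronchiolar cultures.

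Of 15 listed transcription factors of the distal lung, 11 were higher in the alveolar culture, 8 of them at least 2-fold, and 4 in the bronchiolar culture, 3 of them at least 2-fold. Nkx2-1, the lung identity factor, had 350 CPM in the alveolar, 89.6 CPM in the mixed and 112 CPM in the bronchiolar culture. Elf5 had the largest difference at 73.2, 4.12 and 4.16 CPM, and Cebpa, a regulator of AT2 maturation, had 356, 64.1 and 55.2 CPM. The other factors on this side were Id2 with a difference of 2.06, Foxp2 with 1.97, Gata6 with 1.94, Foxa2 with 1.66 and Tbx4 with 1.52. Foxa1 and Foxa2, paired forkhead factors of the lung, thus stood on opposite sides, with Foxa1 at 54.9, 207 and 192 CPM. Sox9, a factor of embryonic distal tips, was at 6.85, 53.8 and 97.6 CPM, and Etv4 at 25.2, 51.4 and 52.6 CPM.

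The largest alveolar differences among protein-coding genes went beyond surfactant. Ppp1r3a, a glycogen-targeting subunit of protein phosphatase, had 60.6 CPM (2581 reads) in the alveolar culture and 2 reads in the bronchiolar culture, a log2 difference of 9.55 (9.04 to 13.94). The AT2 Ad-Cre and AT2 Ad-GFP cultures had only 4.73 and 2.03 CPM of Ppp1r3a, so its high level was seen in 1 library. Tnxb, an extracellular tenascin, had 156 CPM against 0.415 CPM. Nkd1, a feedback inhibitor induced by WNT signalling, had 421 CPM against 2.98 CPM. Sp5, another WNT target, had 18.7 against 1.77 CPM. The other genes among the 10 were Acoxl, Sftpc, Cst8, Susd5, Col9a1, Myh13 and Bex2, with differences from 7.03 to 7.64. The WNT list as a whole was split, with 4 of its 14 genes at 10 CPM at least 2-fold higher in the alveolar and 6 in the bronchiolar culture. On the bronchiolar side Lgr6, an R-spondin receptor, had 2.49 against 85.2 CPM and Wnt7b, a WNT ligand, 12.2 against 150 CPM.

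**Figure D2:**
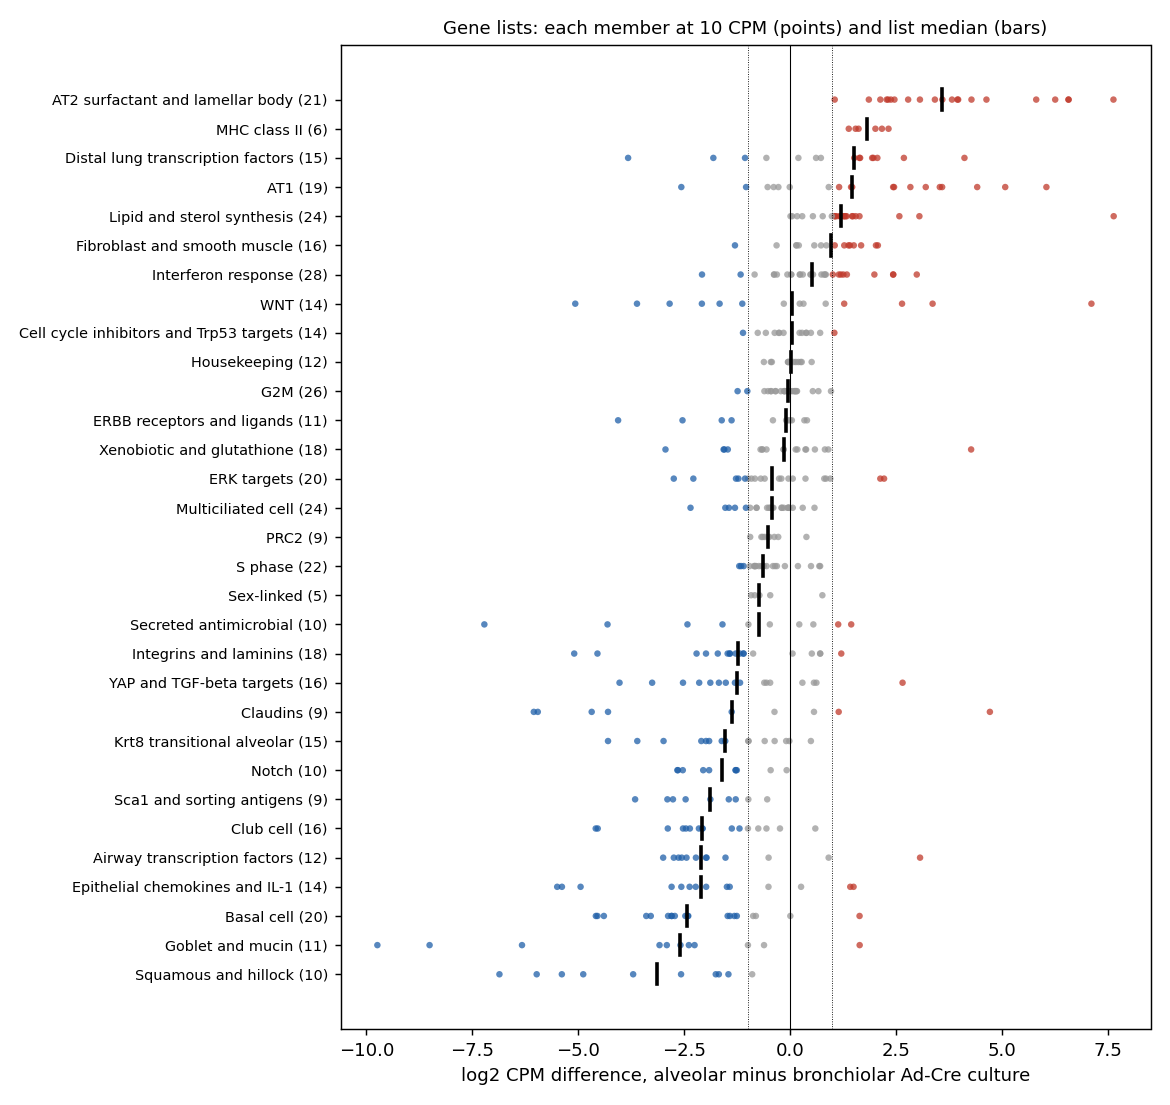
Log2 CPM difference, alveolar minus bronchiolar Ad-Cre culture, for each gene at 10 CPM (points) of the 31 lists with at least 5 such genes (number in parentheses), with the list median as a bar. Red points are at least 2-fold higher in the alveolar and blue points in the bronchiolar culture. Among genes at 10 CPM, AT2 genes have the highest median at 3.60 and squamous genes the lowest at -3.14. Over all listed genes, also those under 10 CPM, the squamous median was -1.75 and the basal median -2.42.

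Club cell genes were higher in the bronchiolar culture. Of 24 listed, 16 reached 10 CPM, and 11 of these were at least 2-fold higher in the bronchiolar culture and none in the alveolar culture, with a median difference of -2.07. Scgb3a1, a secretoglobin of the airway, had 26.02 CPM in the alveolar, 1380 CPM in the mixed and 627 CPM in the bronchiolar culture. Gabrp, a GABA receptor subunit of airway secretory cells, had 32.2, 826 and 750 CPM. Scgb3a2 had 52.2, 578 and 218 CPM. Of the 16 genes, 11 were higher in the mixed culture than in both subcultures, beside 29.1% of all 10951 genes. Scgb1a1 was not one of them, and 1 of the 16 reached 10 CPM only in the mixed culture. Over all 24 listed, 13 were above both. Secreted antimicrobial genes were divided, with 4 of 10 at 10 CPM at least 2-fold higher in the bronchiolar and 2 in the alveolar culture. Bpifa1, named above, had 13.5, 2591 and 2015 CPM, and Ltf, the lactoferrin gene, had 453, 12287 and 8987 CPM.

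The bronchiolar culture also held basal and squamous genes, which its label does not name. Of 20 basal genes at 10 CPM among 21 listed, 16 were at least 2-fold higher in the bronchiolar and 1 in the alveolar culture. The median difference of the 20 was -2.44. Of the 20, 16 reached 10 CPM in both subcultures, 3 in the bronchiolar but not the alveolar, and 1 only in the mixed culture. Over all 21, 19 were higher in the bronchiolar and 2 in the alveolar culture, with a median of -2.42. Trp63, the defining factor of basal cells, had 12.5 CPM in the alveolar, 138 CPM in the mixed and 132 CPM in the bronchiolar culture. Krt5, the basal keratin, had 96.5, 1018 and 510 CPM, and Krt14 had 48.4, 756 and 337 CPM. Itgb4, the hemidesmosome integrin, had 23.04, 485 and 540 CPM. Bcam, a laminin receptor, was the single gene on the alveolar side at 915 against 293 CPM. Of 21 squamous and hillock genes, 10 reached 10 CPM and 9 of these were at least 2-fold higher in the bronchiolar culture. Over all 21, 16 were higher in the bronchiolar and 2 in the alveolar culture, with a median difference of -1.75. Of the 10, 4 reached 10 CPM in both subcultures, 4 in the bronchiolar but not the alveolar culture, and 2 only in the mixed culture. The last 2 were Krt13, at 1.10, 14.7 and 2.09 CPM and not past 2-fold, and Krt4, at 2.91, 15.8 and 8.06 CPM. Krt16, a keratin of activated squamous cells, had 0.422 against 54.7 CPM, and Serpinb2 had 2.72, 59.4 and 175 CPM. The late cornification genes Krt1, Lor and Krtdap stayed at or below 1.02 CPM in all 3 cultures.

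The largest difference on the bronchiolar side was that of Tff2. This gene of a trefoil peptide of gastric mucus had 0 reads in the alveolar culture, 46.9 CPM in the mixed and 41.9 CPM (2626 reads) in the bronchiolar culture, which is at least 595-fold higher against a floor of 3 reads. Gp2, a glycoprotein of specialised secretory and M cells, had 3 reads in the alveolar culture against 43.5 CPM, a log2 difference of -8.51 (-11.55 to -7.72). Pyy, a gut peptide hormone, had 0 reads against 621 reads (9.91 CPM), 141-fold against the same floor, with an upper limit of -6.83. It passed 10 CPM only through the mixed culture. The other genes of the 10 were Calcb, Olfm4, Aldh1a3, Tmprss11e, Ppbp, Dmrt3 and Nat8l, with differences from -8.87 to -7.56. The gel-forming mucin Muc5b had 21.8, 107 and 185 CPM and Muc5ac had 7.46, 27.1 and 35.8 CPM, while Spdef, the goblet cell factor, was at 1.27, 3.16 and 2.01 CPM. Of 15 goblet genes in the files, 11 reached 10 CPM, 8 of them at least 2-fold higher in the bronchiolar and 1, Creb3l1, in the alveolar culture. Of the 11, 7 reached 10 CPM in the bronchiolar but not the alveolar culture and so had to lie on that side. Over all 15, 12 were higher in the bronchiolar and 2 in the alveolar culture.

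Multiciliated genes lay mostly on the same side as Foxj1 but with smaller differences, 30 of 35 being higher in the bronchiolar culture. Of the 35 listed, 24 reached 10 CPM, 17 of these in the mixed culture alone, and 5 were at least 2-fold higher in the bronchiolar culture. Over all 35 genes the median difference was -0.47. Mcidas, which starts the programme, was at 1.27 CPM in the alveolar and 0.973 CPM in the bronchiolar culture, and Gmnc, which acts with it, at 0.821 and 2.22 CPM. Dnah9, an axonemal dynein, had 3.94 against 11.5 CPM, the largest difference after Foxj1 among genes at 10 CPM. Tekt1 had 2.28, 11.6 and 3.33 CPM in the alveolar, mixed and bronchiolar cultures.

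Airway transcription factors were mostly higher in the bronchiolar culture. Of 18 listed, 12 reached 10 CPM, 9 of them at least 2-fold higher in the bronchiolar culture and 1 in the alveolar culture. Of the 12, 7 reached 10 CPM in the bronchiolar but not the alveolar culture, and 4 in both. Over all 18, 13 were higher in the bronchiolar and 4 in the alveolar culture. Sox2, the factor that specifies airway epithelium, had 15.4 CPM in the alveolar, 155 CPM in the mixed and 123 CPM in the bronchiolar culture. Tfap2a had a difference of -2.74, Zfp750 of -2.63, Barx2 of -2.44, Grhl1 of -2.22, Sox21 of -1.98, Six4 of -1.97 and Pax9 of -1.52. Pitx1 was the exception, at 1.97 CPM in the alveolar, 15.7 CPM in the mixed and 0.191 CPM in the bronchiolar culture, and it passed the 10 CPM filter only through the mixed culture.

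Most listed integrin, laminin and Notch genes were higher in the bronchiolar culture. Of 18 integrin and laminin genes, 12 were at least 2-fold higher there and 1 in the alveolar culture, Itga2 most at 12.4 against 426 CPM. Of 10 Notch pathway genes at 10 CPM, 8 were at least 2-fold higher in the bronchiolar culture and none in the alveolar culture. Of the 10, 3 reached 10 CPM in the bronchiolar but not the alveolar culture, and 6 in both. The ligand gene Jag1 had 21.1, 92.8 and 134 CPM, and the target gene Hey1 had 3.73, 35.7 and 23.6 CPM. Of 16 YAP and TGF-beta targets, 9 were at least 2-fold higher in the bronchiolar culture, with Ankrd1, a YAP target, at 6.19 against 102 CPM. Of 14 chemokine and cytokine genes at 10 CPM, 10 were at least 2-fold higher in the bronchiolar and 2 in the alveolar culture. Of the 14, 6 reached 10 CPM in the bronchiolar but not the alveolar culture, and 7 in both. Over all 17 listed, 12 were higher in the bronchiolar and 5 in the alveolar culture. Il1a, an epithelial alarmin, had 2.09 against 96.5 CPM and Il33, another, had 280 against 98.8 CPM. Claudins, the sealing proteins of tight junctions, stood on both sides. Of 9 at 10 CPM, 5 were at least 2-fold higher in the bronchiolar and 2 in the alveolar culture. Of the 9, 3 reached 10 CPM in the bronchiolar but not the alveolar culture, Cldn1 among them, and 6 in both. Over all 14 listed, 11 were higher in the bronchiolar and 3 in the alveolar culture. Cldn18 had 1227 against 46.5 CPM and Cldn1 had 1.43 against 97.99 CPM. Beside the 2-fold counts of these lists, 10.9% of all 10951 genes were at least 2-fold higher in the bronchiolar and 10.8% in the alveolar culture.

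Of 11 ERBB receptor and ligand genes at 10 CPM, 4 were at least 2-fold higher in the bronchiolar culture and none in the alveolar culture. Mouse Egfr had 33.5 CPM in the alveolar, 143 CPM in the mixed and 195 CPM in the bronchiolar culture. Nrg1, a ligand of ERBB3 and ERBB4, had 3.47 against 58.6 CPM, while Erbb2, Erbb3, Areg and Errfi1 differed by -0.09 to 0.04. Of 20 ERK target genes, 5 were at least 2-fold higher in the bronchiolar and 2 in the alveolar culture, with Dusp5 at 12.5 against 84.2 CPM and Myc at 17.6 against 85.7 CPM, and with Spry1 at 191 against 40.8 CPM and Etv5 at 285 against 65.0 CPM. Beside these counts, 10.9% of all 10951 genes were at least 2-fold higher in the bronchiolar and 10.8% in the alveolar culture. Human EGFR reads were not analysed here, and whether any were assigned to the mouse gene is not known.

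Sca1 and EpCAM, the antigens that the sort selected for, had lower RNA in the alveolar culture. Ly6a, the Sca1 gene by which all of these cells were sorted, had 71.9 CPM in the alveolar, 1353 CPM in the mixed and 908 CPM in the bronchiolar culture, beside 29.4 CPM in the Sca1-negative AT2 Ad-Cre culture. Epcam had 222, 1236 and 1224 CPM, and 167 CPM in the AT2 Ad-Cre culture. Prom1, a surface protein of apical membranes, had 25.1, 221 and 187 CPM. All 9 listed surface genes were lower in the alveolar culture, 7 of them by at least 2-fold.

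Markers of the mesenchymal support cells were present in all 3 libraries. Fibroblast and smooth muscle genes summed to 6305 CPM in the alveolar, 5514 CPM in the mixed and 4004 CPM in the bronchiolar culture, and 8 of 16 at 10 CPM were at least 2-fold higher in the alveolar and 1 in the bronchiolar culture. Col1a1 had 1368, 1907 and 1184 CPM, Thy1 228, 73.5 and 54.1 CPM, and Dcn 138, 270 and 339 CPM. The endothelial genes Pecam1, Cdh5 and Kdr were at or below 0.493 CPM in all 3, although Esam, an adhesion gene named for endothelium, was at 124, 4.98 and 5.41 CPM in the alveolar, mixed and bronchiolar cultures. Flt1, a VEGF receptor and the other endothelial gene at 10 CPM, lay the other way at 4.48, 29.5 and 29.3 CPM. In bulk RNA, fewer cells of a type and less RNA per cell cannot be told apart, for these and for all genes above. The part of the support cells in the differences was not tested.

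Promoter motifs of the genes at least 4-fold apart differed most for AP-1. A TGANTCA match stood in 49 of 331 promoters (14.8%) of genes higher in the bronchiolar culture, in 22 of 348 (6.32%) of genes higher in the alveolar culture, in 4.53% for genes at 10 CPM and in 6.87% of all 27025 promoters. Promoters were held for 331 of 486 and 348 of 456 genes. Of the 15 squamous genes with a promoter, 10 had a match, including Sprr1a and Serpinb2 shown above, some of the 10 being related Sprr genes. Among AP-1 genes in the lists, Fosl1 had 17.2 CPM in the alveolar against 26.02 CPM in the bronchiolar culture, and Fos 236 against 131 CPM. AP-1 activity was not tested. The NKX2-1 letters stood in 13.2% of alveolar and 12.99% of bronchiolar promoters, and the C/EBP letters in 10.1% and 9.67%. The forkhead letters stood in 4.02% and 2.11%, beside 3.09% of all promoters, and in 4 of 17 AT2 promoters, Lamp3 among them. The RFX letters stood in 13 of 31 multiciliated promoters (41.9%) against 10.5% of all, and in 12.1% of the alveolar and 7.25% of the bronchiolar promoters. A match is a run of letters and says nothing of binding.

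The mixed culture did not lie midway. Its position for a gene was taken as its CPM minus the bronchiolar CPM, divided by the alveolar minus the bronchiolar CPM, so that 0 is the bronchiolar and 1 the alveolar level. For the 456 genes at least 4-fold higher in the alveolar culture the median position was 0.015, with quartiles of -0.020 and 0.054, and 447 of them were nearer to the bronchiolar level. For the 486 genes at least 4-fold higher in the bronchiolar culture the median was 0.11, with quartiles of -0.20 and 0.34, and 439 were nearer to the bronchiolar level. Sftpc was at 0.018, Scgb1a1 at 0.72 and Foxj1 at -0.37. The Ad-GFP mixed culture had medians of -0.013 and 0.38 for the same genes. Over the 10951 genes, log2 CPM of the mixed Ad-Cre culture correlated with the bronchiolar culture at r = 0.967 and with the alveolar culture at r = 0.738, beside r = 0.739 between the subcultures and r = 0.942 between the mixed Ad-Cre and Ad-GFP cultures. Genes are not independent replicates, and the position is a ratio of levels, not a share of cells.

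**Figure D3:**
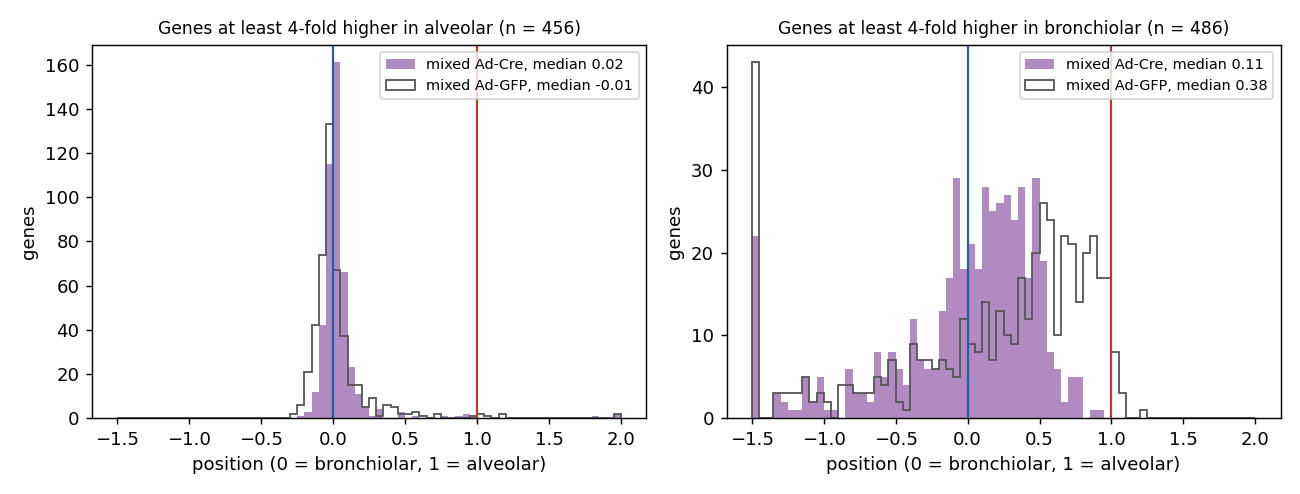
Number of genes by the position of the mixed culture between the bronchiolar (0, blue line) and alveolar (1, red line) levels, for the Ad-Cre (filled) and Ad-GFP (outline) mixed cultures, with values beyond the axis placed in the end bins. Alveolar genes pile up at the bronchiolar line with a median of 0.02, and bronchiolar genes spread from below 0 to about 1 with medians of 0.11 and 0.38.

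Some genes were outside both subcultures in the mixed culture. It was at least 2-fold above both for 171 genes (1.56%) and at least 2-fold below both for 36 genes (0.329%), and above both by any amount for 29.1% of genes. Of the interferon-response genes, 9 of 28 were at least 2-fold higher in the alveolar and 2 in the bronchiolar culture. In the mixed culture 15 of 28 were at least 2-fold above both and 24 of 28 above both. Oas2, an antiviral synthetase, had 8.73 CPM in the alveolar, 15.6 CPM in the bronchiolar, 110 CPM in the mixed Ad-Cre and 143 CPM in the mixed Ad-GFP culture. The subcultures themselves differed in this group, since Ifit3, an interferon-induced RNA-binding protein, had 177 CPM in the alveolar and 22.1 CPM in the bronchiolar culture while Ifi44 had 17.4 and 73.5 CPM. Multiciliated genes were above both in 34 of 35, and the mixed Ad-GFP culture had Foxj1 at 491 CPM and Tekt1 at 44.8 CPM. Among single genes, Krt15, a basal keratin, had 10.4 CPM in each subculture, 105 CPM in the mixed Ad-Cre and 431 CPM in the mixed Ad-GFP culture. Apol9a and Apol9b, near-identical neighbours whose reads are hard to separate, had 38.98 and 31.5 CPM in the mixed culture against 2.04 to 2.65 CPM in the subcultures, and Ccl11 and 2300002M23Rik were the other genes of the highest 5. The 5 farthest below both were Akap5, Edn3, Fam19a4, Rassf2 and Nebl, with Akap5 at 400, 13.6 and 72.8 CPM in the alveolar, mixed and bronchiolar cultures. Both mixed cultures share a lane number that the subcultures do not, and lane and culture cannot be told apart.

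**Figure D4:**
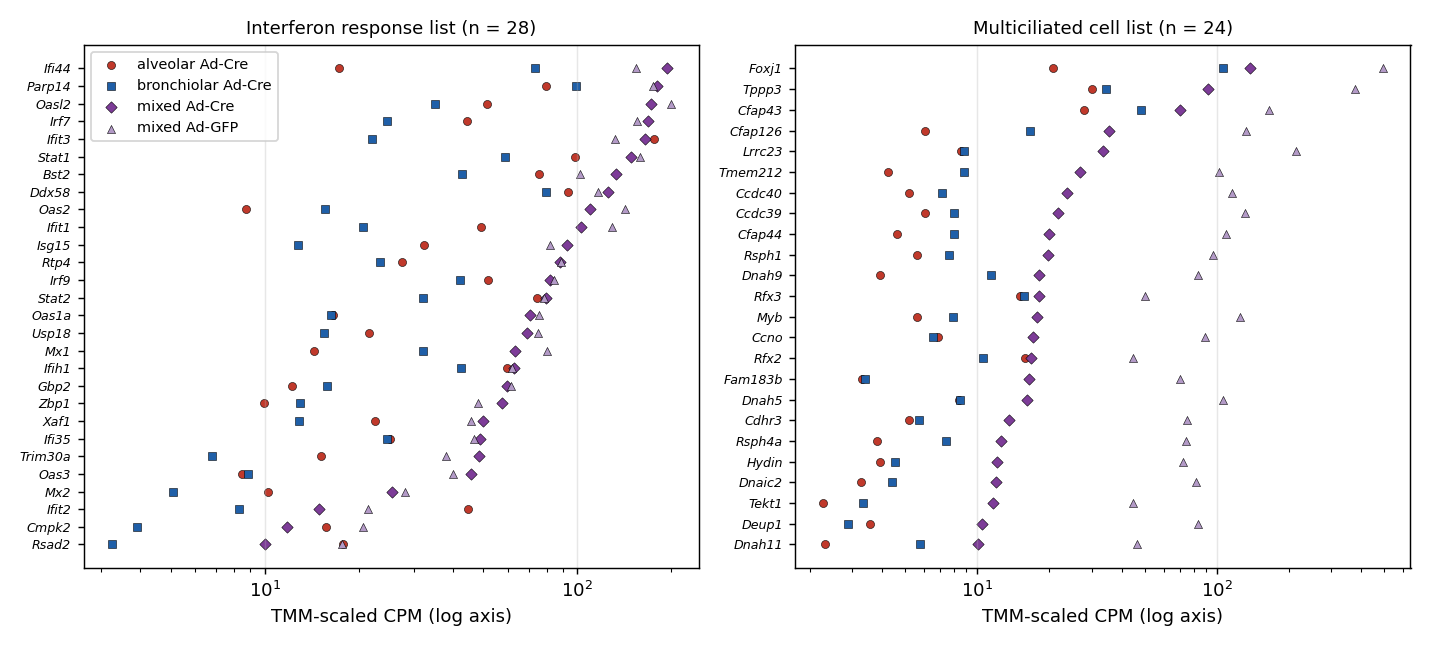
TMM-scaled CPM on a log axis of the 28 interferon-response and 24 multiciliated genes at 10 CPM in the alveolar, bronchiolar and mixed Ad-Cre cultures and the mixed Ad-GFP culture, 1 culture each. Mixed Ad-Cre lies to the right of both subcultures for 24 interferon genes, while 17 of the 24 multiciliated genes reached 10 CPM in the mixed Ad-Cre culture alone and so had to lie to the right, and mixed Ad-GFP lies farther right for the multiciliated genes.

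Cell cycle genes passed 2-fold on the bronchiolar side about as often as all genes did, and not at all on the alveolar side. Over all 10951 genes, 10.9% were at least 2-fold higher in the bronchiolar and 10.8% in the alveolar culture. Of 22 S phase genes at 10 CPM, 3 were at least 2-fold higher in the bronchiolar and none in the alveolar culture. The median difference of the 22 was -0.64. Of the 22, 5 reached 10 CPM in the bronchiolar but not the alveolar culture and so had to lie on that side. Over all 28 listed S phase genes the median was -0.57. Of 26 G2M genes, 2 were at least 2-fold higher in the bronchiolar and none in the alveolar culture, with a median of -0.05. Mki67, the proliferation marker, had 62.6 CPM in the alveolar, 79.1 CPM in the mixed and 64.3 CPM in the bronchiolar culture. Hells, a chromatin remodeller of S phase, had 12.3 against 28.4 CPM. Of the other lists, 1 of 14 cell cycle inhibitor and Trp53 target genes was at least 2-fold higher on each side, and none of 9 PRC2 genes at 10 CPM was on either. Of 18 xenobiotic and glutathione genes at 10 CPM, 4 were at least 2-fold higher in the bronchiolar and 1 in the alveolar culture. Of 11 gastric lineage genes listed, 2 reached 10 CPM, both at least 2-fold higher in the bronchiolar culture, while over all 11 the median difference was 0, with 4 higher in the alveolar and 5 in the bronchiolar culture. None of 11 neuroendocrine and 1 of 11 haematopoietic genes reached 10 CPM.

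The same genes were read in tumoroids grown out of mouse lung tumours after transplantation of the cultures, sequenced on another platform. The bronchiolar BASC-derived tumoroid was set against 6 others, 3 from AT2 cells and 3 from mixed BASC cultures. It lay below all 6 for 276 of the 456 genes at least 4-fold higher in the alveolar culture (60.5%), against 14.1% of all 10951 genes, and above all 6 for 4. It lay above all 6 for 389 of the 486 genes at least 4-fold higher in the bronchiolar culture (80.0%), against 25.7% of all genes, and below all 6 for 2. Sftpc had 1684 CPM in the bronchiolar-derived tumoroid and 9481 to 65487 CPM in the 6 others. Scgb1a1 had 2370 CPM against 0.311 to 735 CPM, and Foxj1 222 CPM against 1.07 to 17.3 CPM. Krt5 had 144 CPM against 0 to 0.371 CPM. Sftpb overlapped, with 4062 CPM in the bronchiolar-derived tumoroid inside the range of 3543 to 15953 CPM. There is 1 bronchiolar-derived tumoroid, so this compares 1 culture with the range of 6, and 2 of the 6 share a label number with it. The paper reports that most tumours from bronchiolar BASC transplants were alveolar, and it grouped tumoroids by their lineage markers. The bronchiolar-derived tumoroid therefore need not stand for the other tumours of that culture, and whether the subculture difference persisted in them was not tested.

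**Figure D5:**
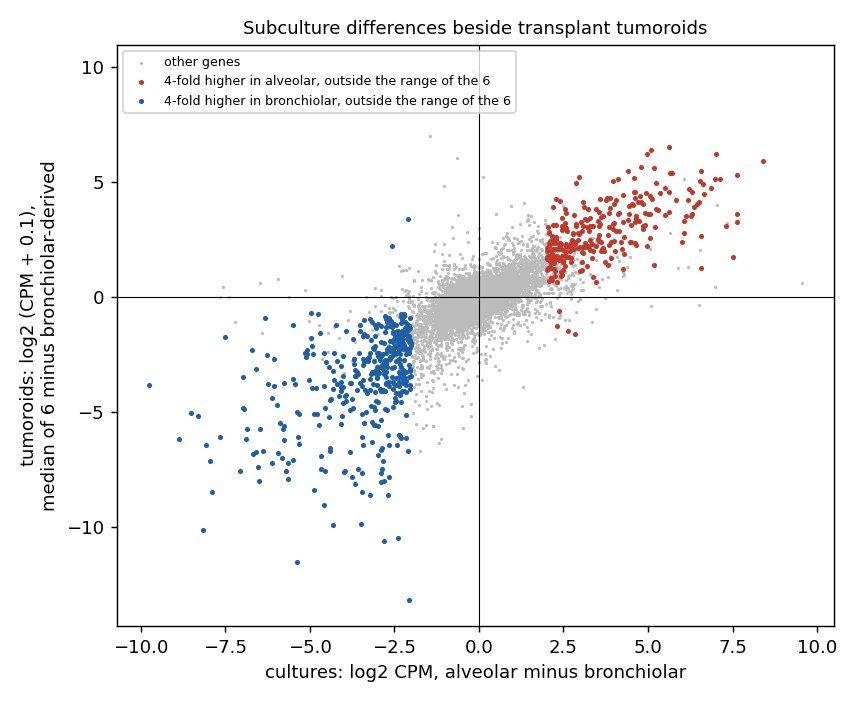
Each of 10951 genes by its log2 CPM difference between the alveolar and bronchiolar cultures (horizontal) and between the median of 6 transplant tumoroids and the bronchiolar-derived tumoroid (vertical, log2 of CPM + 0.1). Coloured points are genes at least 4-fold apart in the cultures whose bronchiolar-derived tumoroid lies outside the range of the 6 others on either side. Red points lie mostly above 0 and blue points mostly below 0.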

How the data were processed

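RNA of each culture was extracted and sequenced once, organoids on HiSeq and tumoroids on DNBSEQ instruments per the labels. Per the submitters' processing notes, the authors trimmed reads with Trimmomatic 0.39, mapped them with STAR 2.6.1d to GRCm38, and deposited the RSEM 1.3.2 expected count per gene and TPM, neither normalized between samples. Expected counts were rounded. TMM factors came from the 20104 genes that edgeR 4.0.16 kept over all 18 samples in R 4.3.3, and log2 CPM used a prior count of 2. Of 46603 gene identifiers, 46091 were matched to GENCODE vM21. Genes needed 10 CPM in 1 of the 3 Ad-Cre cultures, and no test was run, since each group is 1 culture. The code was tested on simulated data. A fold against 0 reads used a floor of 3 reads.

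The cultures and all 35 gene lists were chosen with earlier results of these data known. Named genes were the first 3 of each cell type list, the 10 protein-coding genes with the largest difference each way, the 2 largest each way past 2-fold of each list, the 5 farthest above and below both subcultures in the mixed culture, and the lung factors past 2-fold. Some genes that this rule names are not reported here. Other genes were named after their values were seen. Scaling (library totals, DESeq2 1.42.0 size factors, TMM on 3 cultures, the deposited TPM), prior count, filter and fold were varied.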

Additional observations from a re-analysis of the deposited data

Results flagged for a closer look

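S phase genes stood on opposite sides in the cultures and the tumoroids. The median difference of the list was -0.64 in the cultures, alveolar minus bronchiolar. It was 0.39 to 0.80 for each of the 6 other transplant tumoroids minus the bronchiolar-derived tumoroid. Of the 22 genes at 10 CPM, 5 reached it in the bronchiolar but not the alveolar culture. Over all 28 listed genes the culture median was -0.57. The list was singled out because every tumoroid went the opposite way to the cultures, with a cut of 0.3 on the size of a log2 median. The G2M and WNT lists also turned in every tumoroid, but from culture medians of only -0.05 and 0.04. The difference between cultures and tumoroids was not tested. The cultures and the tumoroids were also sequenced on different platforms, and platform and transplantation cannot be told apart.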

How the results depend on the processing

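Filters set the counts most. The 1179 and 1198 genes at least 2-fold higher in the alveolar and bronchiolar cultures became 2020 and 1912 at 1 CPM, 596 and 631 at 50 CPM, 3349 and 3230 with no filter beyond 1 read, and 456 and 486 at 4-fold. The 207 genes of the mixed culture outside both became 531, 61, 1032 and 31 under the same settings. The median position over all genes at least 4-fold apart was 0.025, and became 0.041 in TPM, 0.044 with no filter, 0.040 for genes 2-fold apart and 0.060 in log2 CPM. For alveolar-high genes 0.015 became 0.0060 at 50 CPM and 0.077 in log2 CPM. For bronchiolar-high genes 0.11 became 0.16 in TPM, 0.19 with no filter and 0.048 in log2 CPM. The share of these genes on the same side in the tumoroids was 70.6% and became 64.1% at 1 CPM, 75.7% at 50 CPM, 55.7% with no filter, 58.5% for genes 2-fold apart and 95.3% against the mean of the 6 tumoroids. List medians in TPM were 0.96 for lipid and sterol synthesis, -0.68 for PRC2 and -0.98 for sex-linked genes, and the G2M median was -0.46 at 50 CPM. The cause of these moves was not tested, beyond the change in the genes that entered. Of 279 alternative list medians 271 kept their direction, and the 8 that turned belonged to 4 lists with medians no larger than 0.055. No named gene past 2-fold turned. No paired analysis was possible because each group holds 1 culture.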

Other observations

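The alveolar culture held genes of cartilage and striated muscle, found after their values were seen. Col2a1, the collagen of cartilage, had 184 CPM in the alveolar culture, 2.10 CPM in the mixed and 3.62 CPM in the bronchiolar culture. Acan, the cartilage proteoglycan, had 31.2, 0.337 and 0.383 CPM. The AT2 Ad-Cre culture had 187 CPM of Col2a1 and 51.9 CPM of Acan, and the AT2 Ad-GFP culture 1.55 and 1.52 CPM. Myh7, a slow muscle and heart myosin, had 262 CPM in the alveolar culture, 275 CPM in the AT2 Ad-Cre and 184 CPM in the AT2 Ad-GFP culture, and 2.55 to 3.81 CPM in the mixed and bronchiolar Ad-Cre cultures. The bronchiolar-derived tumoroid had 8.18 CPM of Myh7 and the 6 others 35.6 to 493 CPM. The tumoroids overlapped for Col2a1, with 4.02 CPM against 2.92 to 108 CPM, and for Acan, with 3.85 CPM against 1.62 to 23.6 CPM.

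Each of the 3 Ad-Cre cultures held transcripts of both sexes. Xist, from the inactive X chromosome, had 72.2 CPM in the alveolar, 32.2 CPM in the mixed and 42.5 CPM in the bronchiolar culture, and the Y-linked Ddx3y had 68.6, 102 and 122 CPM. Whether organoid or support cells carried them was not tested.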
